A study of Mus musculus with 4 samples.

Results

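Mybl1, Tcfl5, Rfx2, Rfx3, Rfx4, Sox30 and Crem encode transcription factors that act in pachytene spermatocytes and spermatids, and their RNA levels were examined in cultured pachytene spermatocytes with and without inhibition of the ATR kinase. The 7 genes were taken by name from the deposited expression table of 23420 genes. A mean TPM (a level scaled for gene length and library size, in which each library sums to 1000000) above 1 in Ctrl or AZ20 made 10316 genes testable, and 6 of the 7 regulators were among them, with Rfx3 below that level. The cells came from wild-type C57BL/6 mice of 23 weeks of age, were isolated by FACS with a DNA-binding dye, and were cultured for 24 h with DMSO (Ctrl) or with 10 μM AZ20, an ATR inhibitor. Each condition had 2 libraries, each from 15000 cells. Per the methods, the cells of each mouse were divided over treatment and control. Libraries of the same replicate number were taken as pairs, although neither the methods nor the labels state which libraries share a mouse. The labels and the methods give different culture temperatures. The sorted fraction was enriched for pachytene spermatocytes, not pure, and each library represents the cells of a mouse kept outside the testis.

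In the male germline, MYBL1 (A-MYB) switches on a large set of genes at the pachytene stage, among them the genes of the pachytene piRNA pathway, and TCFL5, a basic helix-loop-helix factor, works beside it in the same cells. RFX2 and related RFX factors bind X-box sequences in the promoters of ciliary and flagellar genes, and SOX30 activates genes of the haploid phase. CREM, in its activator isoforms, drives genes that package the sperm nucleus and build the sperm tail in round spermatids, whereas other isoforms of the same gene act as repressors.

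The libraries held 13856972 to 15727549 reads on genes in Ctrl and 18409123 to 20098499 in AZ20, recovered from the steps between low TPM values. Of 9 pachytene spermatocyte markers, 8 passed the filter on low values, and the 9 summed to 9935 to 10679 TPM over the libraries. Ldhc was the largest part of this sum in each library, with 5216 to 6178 TPM, followed by Sycp3. In contrast, H1f6 (Hist1h1t), the testis-specific linker histone, was between 0 and 1.52 TPM. For purity, the study stained the sorted cells for proteins that included this histone (H1T). An RNA value does not measure that protein, and the cause of the low RNA level was not tested. The markers of Sertoli cells, Leydig cells, macrophages and peritubular myoid cells each summed to at most 4.44 TPM in every library, and those of spermatogonia to between 7.99 and 20.5 TPM. Sox9 and Wt1 of Sertoli cells, Insl3 and Cyp17a1 of Leydig cells, and Dmrt1 and Stra8 of spermatogonia had 0 reads in all 4 libraries. Other genes of these lists passed the filter on low values. They were Uchl1 (7.60 to 20.1 TPM) and Gfra1 (0.154 to 1.11 TPM) of spermatogonia, Star (0.866 to 2.31 TPM) of Leydig cells and Tagln (1.59 to 2.83 TPM) of peritubular myoid cells. The 7 round spermatid markers summed to 368 and 151 TPM in the Ctrl libraries and to 777 and 252 TPM in the AZ20 libraries (replicates 1 and 2). In each condition, replicate 1 thus held more of these RNAs than replicate 2.

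Promoter sequences from RefSeq (GRCm38.p6) were taken for 5 of the 7 genes, with Mybl1 and Crem left out of the search. They are shown because short motifs that MYB, RFX and CREB-type factors read can be seen in them, and 3 are printed in part. The windows run from 250 bases before to 50 bases after the start site. Capitals mark AACGG or its reverse complement CCGTT (the core of a MYB site), GTTGCC or GGCAAC (an arm of the X-box), and TGACG or CGTCA (the core of a cAMP response element, CRE, the CREM and CREB site), searched on both strands. The bases before the start site are given for Rfx2 (chr17:56831009-56831258, minus strand), Tcfl5 (chr2:180642692-180642941, minus strand) and Sox30 (chr11:45980060-45980309, plus strand), all in the direction of transcription.
Rfx2: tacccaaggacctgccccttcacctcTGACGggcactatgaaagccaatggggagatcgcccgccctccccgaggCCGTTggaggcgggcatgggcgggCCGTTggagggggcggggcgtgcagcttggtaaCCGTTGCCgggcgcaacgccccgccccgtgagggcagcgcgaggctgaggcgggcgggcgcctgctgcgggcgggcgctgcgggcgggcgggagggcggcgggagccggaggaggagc
Tcfl5: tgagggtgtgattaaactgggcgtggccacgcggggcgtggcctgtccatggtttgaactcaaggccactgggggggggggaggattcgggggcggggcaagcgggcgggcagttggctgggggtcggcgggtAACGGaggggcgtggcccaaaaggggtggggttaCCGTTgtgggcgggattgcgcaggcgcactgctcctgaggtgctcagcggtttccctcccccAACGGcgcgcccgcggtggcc
Sox30: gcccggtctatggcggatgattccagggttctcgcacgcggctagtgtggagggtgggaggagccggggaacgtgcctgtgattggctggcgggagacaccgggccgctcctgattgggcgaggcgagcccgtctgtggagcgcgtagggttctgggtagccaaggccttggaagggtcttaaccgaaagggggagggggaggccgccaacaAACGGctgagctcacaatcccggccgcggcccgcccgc

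The Tcfl5 window held 3 MYB cores, the Rfx3 window 2 and the Sox30 window 1. The Rfx2 window held 3 MYB cores and 1 CRE core, and in it the MYB core nearest to the start site ran into an X-box arm, forming CCGTTGCC from 118 to 111 bases before the start. The same 8 letters lay 29 to 36 bases past the start site of Rfx3, where 30 bases (chr19:28011119-28011148, minus strand) read as follows.
Rfx3: agttatagcaaCCGTTGCCttgtgaatcaa
Of the RefSeq start sites of Rfx4, 1 had a CRE core 16 bases after the start and the other had none of these motifs. AACAAT or ATTGTT, a SOX site core, was found in no window of the 5 genes. These letters are common. Of 32851 promoters of the same length, 17.45% held at least 1 MYB core, 12.51% an X-box arm, 20.81% a CRE core and 10.72% a SOX core. No share was computed for repeated cores or for promoters of like base composition, so the member windows cannot be called enriched. Both a MYB core and an X-box arm were in 2.995%, and the overlapping form CCGTTGCC or GGCAACGG was in 0.7245%. That form is longer than each single motif, so a lower share follows from its length. A match is a description of the sequence and was not tested for binding.

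**Figure D1:**
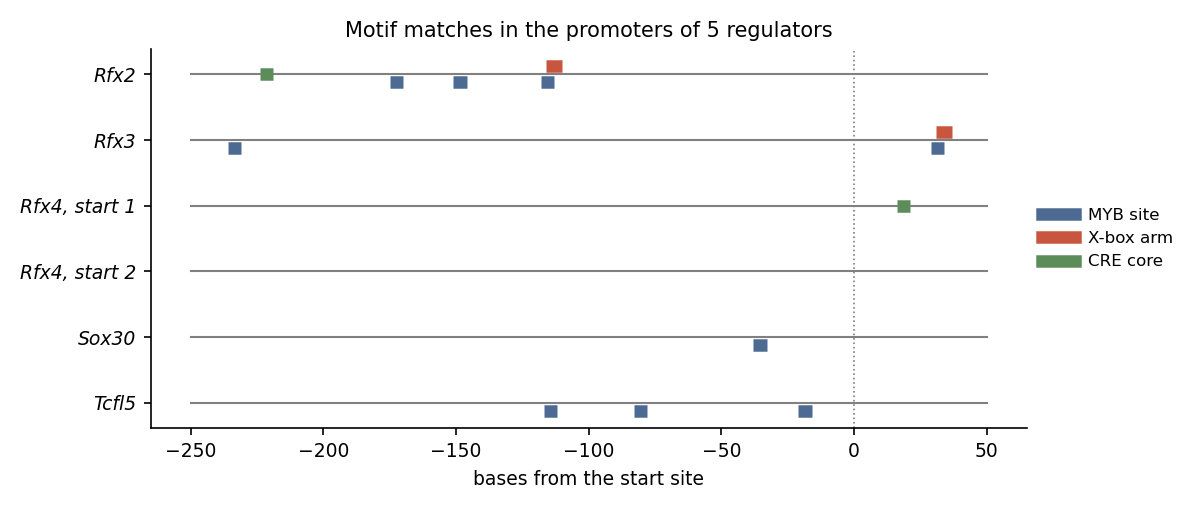
Positions of motif matches in the RefSeq promoters of 5 regulators, in bases from the start site (dotted line), with a grey line for each window and 2 start sites for Rfx4. Blue marks MYB cores, red X-box arms and green CRE cores. In Rfx2 and Rfx3 a blue and a red mark overlap, before the start site in Rfx2 and after it in Rfx3.

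The 7 genes spanned a wide range of levels. Ordered by the mean TPM over the 4 libraries, Tcfl5 was first with 136 TPM and Crem the second with 125 TPM, followed by Rfx2 with 39.0, Rfx4 with 20.4, Sox30 with 15.2, Mybl1 with 14.0 and Rfx3 with 0.456. Neighbours in this order whose library values overlapped were Tcfl5 and Crem, Rfx4 and Sox30, and Sox30 and Mybl1. Crem was above Tcfl5 in Ctrl replicate 2 and below it in the other 3 libraries, and Mybl1 was above Sox30 in AZ20 replicate 2 alone. Rfx2 was separated from both its neighbours in every library, and Rfx3 lay 30.6-fold below Mybl1. By Ctrl libraries alone Crem, with a mean of 137 TPM, was above Tcfl5, with 134 TPM. Among the 10316 tested genes, Crem ranked 1217 and Tcfl5 1233 by mean Ctrl level, Rfx2 ranked 2705, and Rfx4, Sox30 and Mybl1 ranked 3600, 4410 and 4446.

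**Figure D2:**
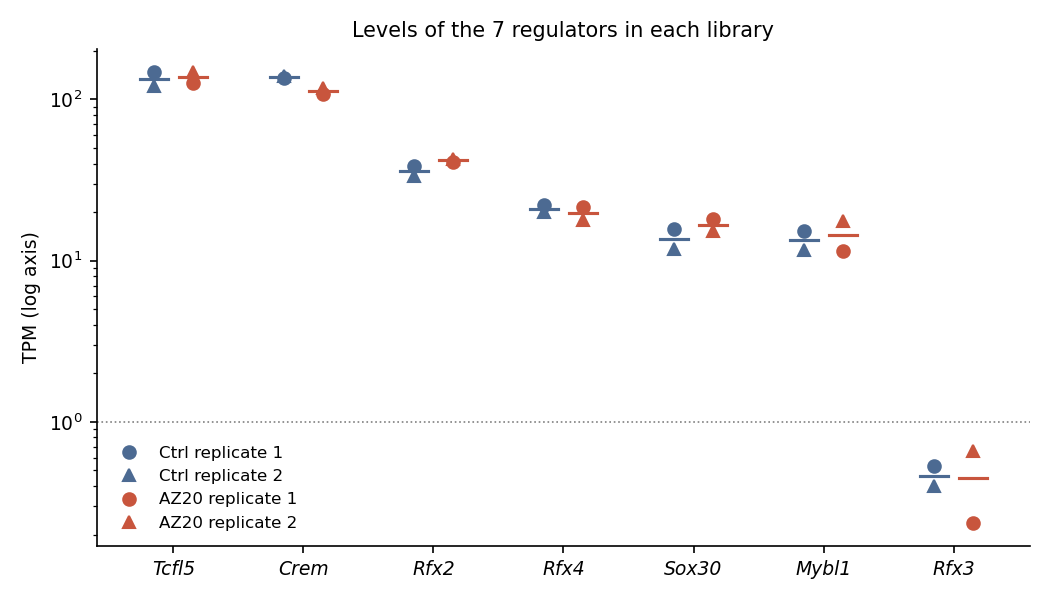
TPM of the 7 regulators in each library on a log axis, ordered by mean level, with Ctrl in blue and AZ20 in red, circles for replicate 1, triangles for replicate 2 and short lines for group means (n = 2). The dotted line is 1 TPM. Tcfl5 and Crem sit between 108 and 148 TPM in all 4 libraries, and Rfx3 sits below 1 TPM in all 4.

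None of the 6 tested regulators passed the test for a change with AZ20. The test was limma on log2(TPM + 1), and a call needed a change of 2-fold or more and a p under 0.05 after Benjamini-Hochberg adjustment over all 10316 genes. By this rule 0 of 6 regulators were called higher, against 2.28% of all tested genes, and 0 were called lower, against 0.0485%. At an unadjusted limma p under 0.05, 0 of the 6 passed, against 828 genes higher and 117 lower in all, and limma-voom on the recovered reads also called 0. Of the 235 genes called higher, 216 were X-linked, and of the 9937 tested autosomal genes, 10 were called higher and 5 lower. All 7 regulators lie on autosomes. Their changes had a median of 0.06 on the log2 scale, beside 0.07 over all tested genes, and 4 were above 0 and 2 below. The 95% intervals of the 6 together ran from a level of 0.630-fold (Crem) to 1.81-fold (Sox30) on the TPM + 1 scale, so a change of 2-fold lay outside each interval. An exact permutation test of 2 libraries against 2 cannot give a two-sided p below 0.333, and was therefore not used for single genes.

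**Figure D3:**
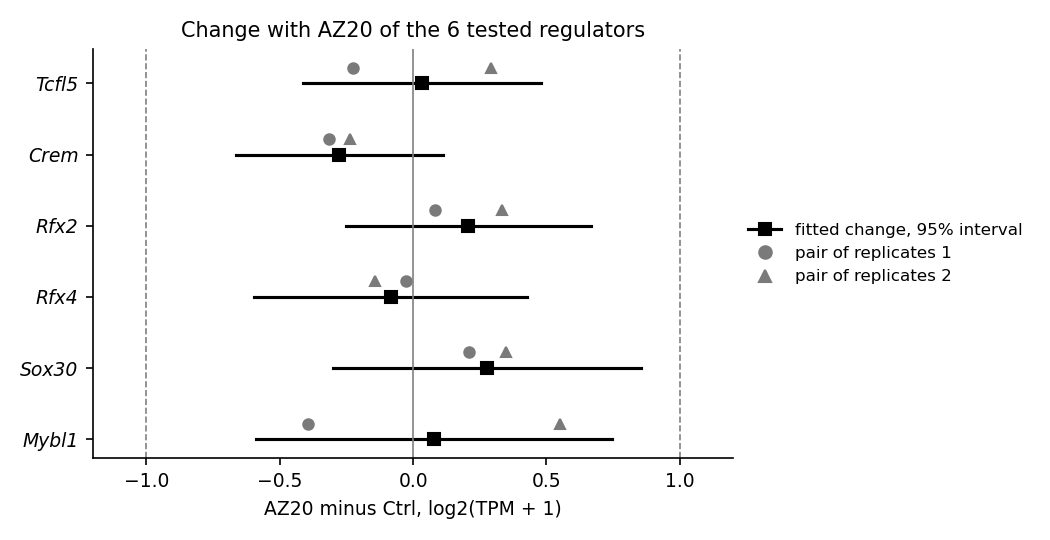
Change with AZ20 of the 6 tested regulators on the log2(TPM + 1) scale, with squares for the fitted change, lines for its 95% interval from limma, and a grey circle and triangle for the pairs of replicates 1 and 2. Dashed lines mark a 2-fold change. Every interval crosses 0 and none reaches a dashed line, and the pairs of Mybl1 and Tcfl5 lie on opposite sides of 0.

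Mybl1 (GRCm38, chr1:9667415-9700209, minus strand), the gene of A-MYB, was measured at 15.3 and 11.6 TPM in Ctrl and at 11.4 and 17.5 TPM in AZ20 for replicates 1 and 2, from 478 to 819 reads. The groups overlapped, since both the lowest and the highest value were AZ20 libraries. The means were 13.5 ± 2.60 TPM in Ctrl and 14.5 ± 4.32 TPM in AZ20 (both SD, n = 2), and the log2 change was 0.08 with a standard error of 0.28 (limma adjusted p = 0.968). The pairs differed in sign, with log2 changes of -0.39 and 0.55. The direction of the fitted change turned under quantile normalization, which gave -0.11.

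Tcfl5 (chr2:180621956-180642708, minus strand) had 148 and 120 TPM in Ctrl and 127 and 148 TPM in AZ20, from 3067 to 4281 reads. As for Mybl1, Ctrl replicate 1 and AZ20 replicate 2 were the high libraries and the groups overlapped. The means were 134 ± 19.6 TPM (SD, n = 2) and 137 ± 15.1 TPM (SD, n = 2), a log2 change of 0.03 with a standard error of 0.19 (limma adjusted p = 0.983), and 91.0% of all tested genes had a larger change in either direction. The log2 change was -0.23 in the pair of replicates 1 and 0.29 in the pair of replicates 2, and the fitted change was -0.01 under quantile normalization. The 3′ end of Tcfl5 overlaps Col9a3 on the opposite strand, and the strand setting of the counting was not stated, so reads of the shared stretch could not be assigned.

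Rfx2 (chr17:56775897-56831013, minus strand), whose product is needed for spermatids to mature, had 38.7 and 33.7 TPM in Ctrl and 41.0 and 42.7 TPM in AZ20, from 1302 to 2000 reads. Both AZ20 libraries were above both Ctrl libraries, an order that 26.4% of all tested genes had. The means were 36.2 ± 3.58 TPM (SD, n = 2) and 41.8 ± 1.16 TPM (SD, n = 2), with a log2 change of 0.21, a standard error of 0.19 and a 95% interval from -0.25 to 0.67 (limma adjusted p = 0.834). The change was 0.08 under quantile normalization and 0.11 without Ctrl replicate 2.

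Rfx4 (chr10:84756062-84906538, plus strand), best known for its part in brain development and with testis transcripts of its own, had 22.1 and 19.96 TPM in Ctrl and 21.7 and 18.0 TPM in AZ20, from 907 to 1283 reads. The groups overlapped, and the log2 change was -0.08 with a standard error of 0.22 (limma adjusted p = 0.955). Rfx3 (chr19:27761721-28011166, minus strand), an RFX factor of ciliated tissues, had 0.530 and 0.399 TPM in Ctrl and 0.236 and 0.661 TPM in AZ20, from 32 to 81 reads. Its lowest and highest values were both AZ20 libraries and differed 2.80-fold, and it was not tested. The means were 0.465 ± 0.0929 TPM (SD, n = 2) and 0.448 ± 0.301 TPM (SD, n = 2).

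Sox30 (chr11:45980310-46017994, plus strand), whose product is needed for round spermatids to develop, had 15.7 and 11.8 TPM in Ctrl and 18.2 and 15.2 TPM in AZ20, from 406 to 794 reads. The AZ20 library was the higher one in each pair, with log2 changes of 0.21 and 0.35, but AZ20 replicate 2 lay below Ctrl replicate 1. The means were 13.7 ± 2.76 TPM (SD, n = 2) and 16.7 ± 2.13 TPM (SD, n = 2). The fitted log2 change of 0.28 had a standard error of 0.24 and a 95% interval from -0.30 to 0.85 (limma adjusted p = 0.830). It was 0.12 under quantile normalization, 0.47 without Ctrl replicate 1, 0.08 without Ctrl replicate 2 and 0.15 without AZ20 replicate 1.

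Crem (chr18:3266048-3337748, minus strand) had 135 and 139 TPM in Ctrl and 108 and 118 TPM in AZ20, from 5802 to 6829 reads. Both AZ20 libraries were below both Ctrl libraries, an order found in 11.7% of all tested genes, and the Ctrl libraries differed least among the 6 tested regulators. The means were 137 ± 2.83 TPM (SD, n = 2) and 113 ± 6.72 TPM (SD, n = 2), so the AZ20 mean was 0.825 of the Ctrl mean. The log2 change was -0.28 with a standard error of 0.16 and a 95% interval from -0.67 to 0.11, and it did not pass the test (limma adjusted p = 0.724). The pairs gave -0.32 and -0.24, and 40.1% of all tested genes had a larger change in either direction. The table has a single value per gene, so activator and repressor isoforms of Crem could not be told apart, and Gm6225 overlaps it on the opposite strand.

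The factors that share a family or complex with the regulators gave 0 calls in either direction, 0 at an unadjusted limma p under 0.05 and 0 by limma-voom on the recovered reads. For Mybl1, 5 of 7 listed relatives were tested: the MuvB components Lin9, Lin37, Lin52, Lin54 and Rbbp4. Lin52 was the most abundant, with 63.5 and 70.2 TPM in Ctrl and 64.7 and 75.2 TPM in AZ20, so that Mybl1 stood at 0.166 to 0.241 of its level. Lin9 had the highest change, with 32.2 and 35.2 TPM in Ctrl and 38.4 and 53.8 TPM in AZ20 (log2 change 0.42, limma adjusted p = 0.685), and Lin54 the lowest (log2 change -0.06). The other MYB genes were not tested, since Mybl2 (B-MYB) was at 0.0703 to 0.892 TPM and Myb had 2 reads in AZ20 replicate 2 and 0 in the other libraries. Mybl1 was thus above the other MYB genes in every library. The list had a median change of 0.08, which was -0.02 under quantile normalization.

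Of the 7 other genes of the RFX group, 5 were tested and 0 were called. All 5 were above 0 with a median of 0.19, but under quantile normalization 3 were above 0 and 2 below, with a median of 0.03. Rfxap, a subunit of the complex that activates MHC class II genes, was the most abundant and had the highest change, with 16.9 and 18.8 TPM in Ctrl and 21.6 and 28.0 TPM in AZ20 (log2 change 0.44, limma adjusted p = 0.670). Rfx2 stood 1.53-fold to 2.30-fold above Rfxap across the libraries. Rfxank, a subunit of the same complex, had the lowest change (log2 change 0.01) and a wide spread, with 1.02 and 1.62 TPM in Ctrl and 3.31 and 0.248 TPM in AZ20. Rfx8, Rfx5 and Rfx7 lay between 4.77 and 16.2 TPM in all libraries, and Rfx1 and Rfx6 were at most 0.201 TPM.

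Sox30 was the most abundant SOX gene in each library. Of the 19 other SOX genes, 10 had 0 reads in all 4 libraries and only Sox6 was tested, with 3.87 and 3.06 TPM in Ctrl and 4.11 and 3.30 TPM in AZ20 (log2 change 0.08, or -0.19 under quantile normalization, limma adjusted p = 0.970). Sox30 stood 3.83-fold to 4.60-fold above Sox6. Of 8 basic helix-loop-helix genes listed beside Tcfl5, 5 were tested and 0 were called, with a median change of 0.34 that was 0.10 under quantile normalization. Mlx, a partner of glucose-responsive factors, was the most abundant, with 14.1 and 21.6 TPM in Ctrl and 22.9 and 21.6 TPM in AZ20. Tcfl5 was 5.53-fold to 10.5-fold above it. Usf2 had the highest change, with 1.43 and 1.86 TPM in Ctrl and 2.64 and 3.50 TPM in AZ20 (log2 change 0.62, limma adjusted p = 0.641), and Mga, a repressor of meiotic genes in other cells, the lowest (log2 change -0.03).

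Of 14 CREB family genes and CREM coactivators, 8 were tested and 0 were called, with a median change of 0.14 that was -0.06 under quantile normalization. Atf1, the closest relative of CREM beside CREB, was the most abundant, with 43.1 and 40.5 TPM in Ctrl and 41.5 and 42.7 TPM in AZ20 (log2 change 0.01, limma adjusted p = 0.997), and Crem stood 2.61-fold to 3.44-fold above it. Creb3 had the lowest change (log2 change -0.15). Fhl5 (ACT), the testis coactivator of CREM, had 25.5 and 2.82 TPM in Ctrl and 30.6 and 11.7 TPM in AZ20. Its values followed the replicate number, high in replicates 1 and low in replicates 2, and the AZ20 library was the higher one in each pair. The log2 change was 0.99 with a standard error of 0.86 (limma adjusted p = 0.827). With the replicate number as a block the adjusted p was 0.0298 (limma), with a change just short of the 2-fold threshold.

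**Figure D4:**
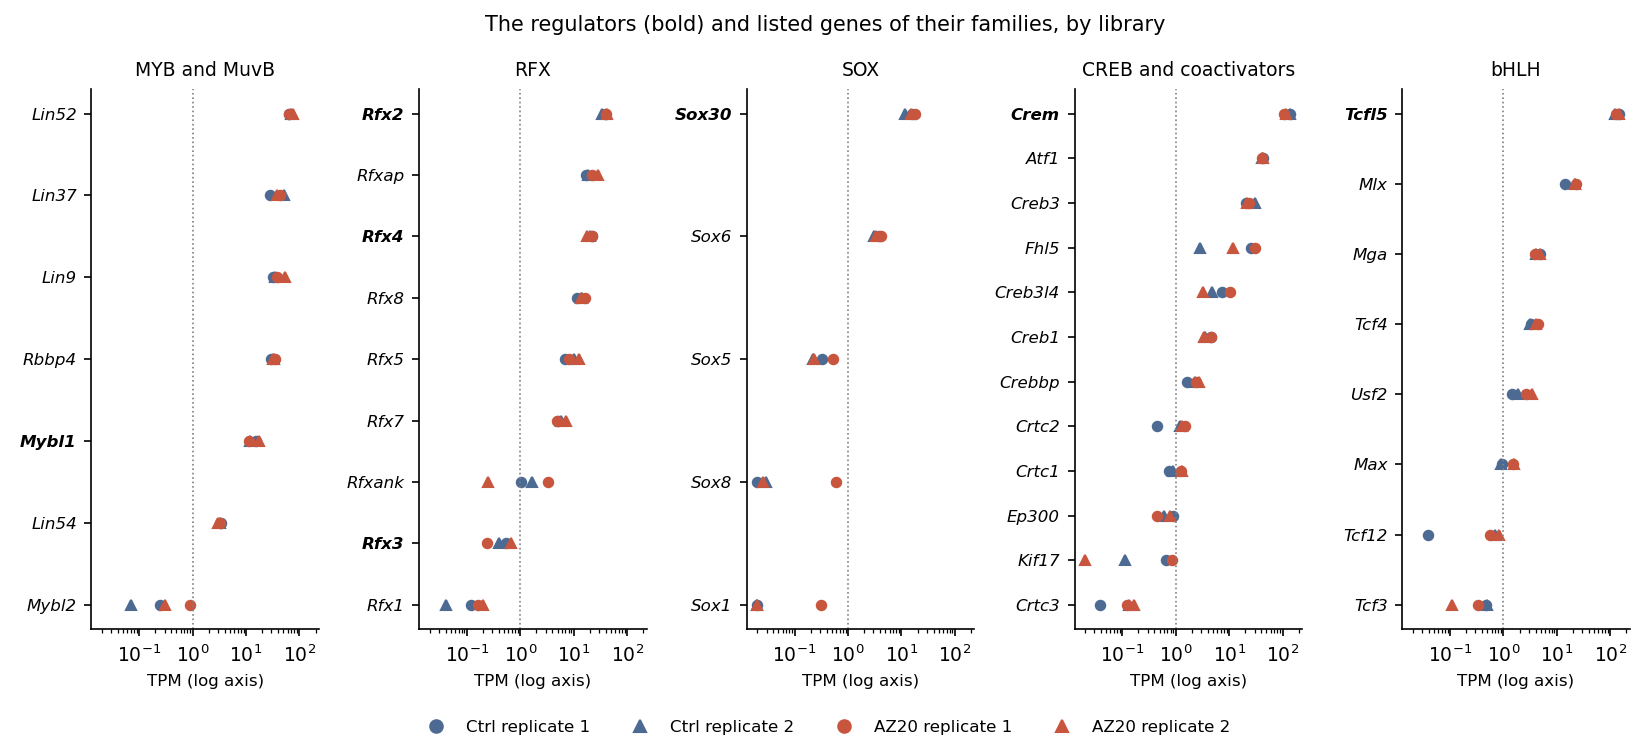
TPM of the regulators (bold) and of listed genes of their families in each library, on log axes, with Ctrl in blue and AZ20 in red, circles for replicate 1 and triangles for replicate 2. Genes with a group mean of at least 0.1 TPM are drawn, values under 0.02 TPM are drawn at 0.02, and the dotted line is 1 TPM. Tcfl5, Rfx2, Sox30 and Crem are the highest of their panels, whereas Mybl1 lies below 4 MuvB genes, and Fhl5 is spread by replicate.

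Groups of genes listed by hand as downstream of these factors were followed next. Whether each listed gene depends on them in these cells was not tested. Of these groups and the regulators of neighbouring stages, Pnldc1 and Taf7l passed an unadjusted limma p under 0.05, and limma-voom on the recovered reads called Taf7l alone. All 18 genes of the piRNA pathway were tested and 0 were called, with 10 above 0, 8 below and a median of 0.05, which was -0.03 under quantile normalization. Gtsf1, a piRNA cofactor, was the most abundant, with 2765 and 2549 TPM in Ctrl and 2474 and 2619 TPM in AZ20 (log2 change -0.06, limma adjusted p = 0.935). Pnldc1, which trims piRNA ends, had the highest change, with 5.69 and 9.34 TPM in Ctrl and 18.4 and 11.4 TPM in AZ20. Both AZ20 libraries were higher, but the log2 change of 0.90 did not pass the test (standard error 0.33, limma adjusted p = 0.455). Tdrd12, a tudor protein of the pathway, had the lowest change, with 161 and 188 TPM in Ctrl and 141 and 133 TPM in AZ20 (log2 change -0.34, limma adjusted p = 0.650). Of 20 genes of intraflagellar transport, which RFX factors regulate in ciliated cells, all were tested, 0 were called, 9 were above 0 and 11 below, and the median was -0.01, or 0.0075 with a common autosomal total. Ift43 was the most abundant, with 1093 and 1024 TPM in Ctrl and 1041 and 970 TPM in AZ20. Wdr19 had the highest change (log2 change 0.47, limma adjusted p = 0.706) and Ift122 the lowest (log2 change -0.28, limma adjusted p = 0.785).

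Spermatid genes of the CREM programme had higher values with AZ20 but differed between replicates of a group by at least as much. None of the 12 passed the test, which left the pairing out. Their levels summed to 544 and 250 TPM in Ctrl and to 995 and 368 TPM in AZ20. The AZ20 library was higher in each pair, whereas AZ20 replicate 2 lay below Ctrl replicate 1, so the groups overlapped. Of the 12 genes 11 were above 0, with a median of 0.76, and under quantile normalization 9 were above 0 with a median of 0.58. Prm1 (protamine 1) had 83.0 and 39.2 TPM in Ctrl and 210.3 and 73.9 TPM in AZ20. Its log2 change was 1.11 with a standard error of 0.52 (limma adjusted p = 0.615). With the replicate number as a block, Prm1 was the 1 gene of the list called higher (limma adjusted p = 0.000766), beside 424 of all 10316 tested genes. In that fit Tnp1, Tnp2 and Hils1, which package the spermatid nucleus, had limma adjusted p-values of 0.0279, 0.00766 and 0.0373 at changes under 2-fold. The share of all tested genes with an adjusted p under 0.05 in that fit was not counted. Spem1, a gene of late spermatids, had the highest change (log2 change 1.15, limma adjusted p = 0.574), from 1 to 57 reads, and Gapdhs, the sperm glycolytic enzyme, the lowest (log2 change -0.13). Tnp2 was the most abundant, with 191 and 81.0 TPM in Ctrl and 426 and 123 TPM in AZ20.

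The list of round spermatid markers shares Prm1, Prm2, Tnp1, Tnp2 and Acrv1 with the CREM programme, so their sums are not independent of each other. The 7 markers had a median change of 0.67, with 7 of 7 above 0 (5 of 7 under quantile normalization) and 0 called. Without the 5 shared genes, the other 7 programme genes summed to 191 and 106 TPM in Ctrl and to 244 and 126 TPM in AZ20. Pgk2 was the largest part of this sum in each library, so the sum says less about the rest. It had 120 and 73.2 TPM in Ctrl and 114 and 77.2 TPM in AZ20 (log2 change 0.0007). The 2 markers outside the programme, Tssk1 and Spaca1, summed to 14.1 and 7.50 TPM in Ctrl and to 26.3 and 9.70 TPM in AZ20. The order of the libraries was the same in both sums, and the part of spermatid RNA in the values of the programme was not tested. In a bulk library, a different number of spermatids and a different RNA level in each cell cannot be told apart. The median change of the 12 genes was 0.73 in the pair of replicates 1 and 0.64 in the pair of replicates 2. Leaving out a library breaks a pair, and the median was then 1.30 without Ctrl replicate 1, 0.17 without Ctrl replicate 2, 0.20 without AZ20 replicate 1 and 1.37 without AZ20 replicate 2. Crem itself was within 135 to 139 TPM in the Ctrl libraries, between which the summed programme differed, and its values were lower in AZ20. How the RNA of the programme relates to that of Crem was not tested.

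**Figure D5:**
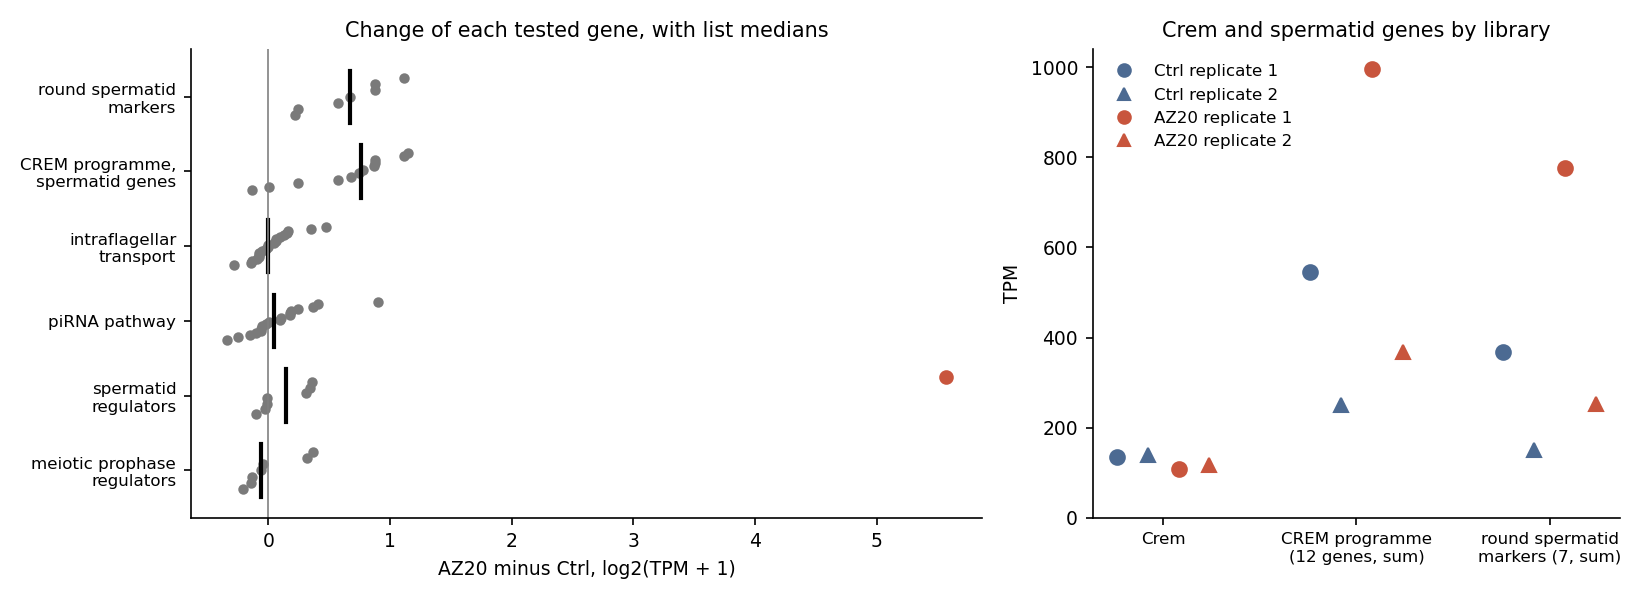
Left, the change with AZ20 of each tested gene of 6 lists on the log2(TPM + 1) scale, with list medians as black lines and the 1 called gene, Taf7l, in red. Right, TPM of Crem and the summed TPM of the 12 genes of the CREM programme and of the 7 round spermatid markers in each library. The sums are highest in AZ20 replicate 1 and lowest in Ctrl replicate 2, whereas Crem stays within 108 to 139 TPM.

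Regulators of neighbouring stages were compared in the same libraries. Of 11 spermatogonial and preleptotene regulators, 10 were found, 4 had 0 reads in every library, 3 were tested and 0 were called, with a median change of 0.51. Id4, a factor of spermatogonial stem cells, was the most abundant with 35.1 and 34.2 TPM in Ctrl and 41.1 and 60.5 TPM in AZ20, Sohlh2 had the highest change (log2 change 0.72, limma adjusted p = 0.546) and Foxo1 the lowest (log2 change 0.28). Of 9 meiotic prophase regulators, 7 were tested and 0 were called, with 2 above 0, 5 below and a median of -0.06. That median was -0.21 under quantile normalization, 0.12 without Ctrl replicate 1 and -0.24 without Ctrl replicate 2. Ybx3 (Csda), a cold-shock protein, was the most abundant with 943 and 710 TPM in Ctrl and 753 and 819 TPM in AZ20. Ovol1 had the highest change (log2 change 0.37, limma adjusted p = 0.785), and Zfp541, a zinc finger factor of late pachytene cells, the lowest (log2 change -0.21, limma adjusted p = 0.901).

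Of 9 spermatid regulators, 8 were tested and 1 was called. Taf7l, an X-linked paralogue of a TFIID subunit, rose from 0.102 and 0.851 TPM in Ctrl to 68.3 and 65.5 TPM in AZ20. The Ctrl libraries held 2 and 19 reads and the AZ20 libraries 1922 and 1663, so the groups were far apart. The log2 change was 5.57 with a standard error of 0.30 (limma adjusted p = 9.33e-05). Without AZ20 replicate 1 or AZ20 replicate 2 the adjusted p was 0.107 and 0.103, as no gene of the table was called with either left out, and the log2 change was 5.54 and 5.60. The other 7 tested spermatid regulators were on autosomes and were not called. Ybx2, which stores spermatid messenger RNA, was the most abundant with 534 and 493 TPM in Ctrl and 506 and 503 TPM in AZ20, and Gtf2a1l, a testis form of TFIIA, had the lowest change (log2 change -0.10, limma adjusted p = 0.938).

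The genes with the most similar levels were found by the Euclidean distance of log2(TPM + 1) over the 4 libraries, which is a description of level and pattern together over 4 points. The gene nearest to Sox30 was Trmt1l (distance 0.0212), with 15.8 and 11.6 TPM in Ctrl and 18.2 and 15.3 TPM in AZ20, and the next was Znhit6 (0.126). Cep85 was nearest to Rfx2 (0.0684), followed by Vps36 (0.142), and Gmfb was nearest to Tcfl5 (0.0820), followed by Stx8 (0.116). Eif3c and Tgif1 were nearest to Crem (0.107 and 0.135). Wdr36 and Arhgap44 were nearest to Mybl1 (0.133 and 0.139), and Ttc12 and Trip4 to Rfx4 (0.152 and 0.154).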

How the data were processed

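Reads had been trimmed by the authors (Trimmomatic 0.39), mapped uniquely to GRCm38 (STAR 2.5.4b) and counted on UCSC refGene (featureCounts 2.0.1). The authors deposited TPM values computed from the counts, with each column summing to 1000000. Blank lines (92) were left out. Whole reads were recovered for all 16857 genes above 0 within a tolerance of 0.002, and depths are lower limits because a common factor can go unseen. Genes whose mean in either condition exceeded 1 TPM were fitted as log2(TPM + 1) with limma 3.58.1 (R 4.3.3, trend in the variance), which understates changes of low genes. The test was run before use on simulated data with known changes. Those data had the same dispersion for all genes and no replicate effect, so they do not show how the test performs on these libraries. Other values came from Python 3.11.15, pandas 2.3.3 and numpy 2.4.6. Gene positions came from GENCODE vM21. The members, lists and tests were chosen with earlier results of these data known. Of each list, the text names the highest and lowest change, the most abundant gene in Ctrl and any called gene. For each regulator it names the nearest 2 genes. Mybl2, Myb, Rfx8, Rfx5, Rfx7, Rfx1, Rfx6, Prm1, Tnp1, Hils1 and Pgk2 and the marker genes at 0 were added after their values were seen. Same-numbered libraries deviated together from their groups (correlation 0.232 over 9937 autosomal genes). The methods give the division of each mouse's cells, and the pairing by replicate number was inferred from it. The alternatives include this pairing as a block. The alternatives were pseudocounts of 0.1 and 0.01, other filters, quantile normalization, a common autosomal total, no trend, limma-voom on the recovered reads and leaving out each library.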

Additional observations from a re-analysis of the deposited data

How the results depend on the processing

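The counts of regulators called higher and lower stayed at 0 under all 13 alternatives, although no gene of the whole table was called higher or lower without AZ20 replicate 1 or without AZ20 replicate 2, so those settings say nothing about the regulators. Of 78 changes of regulators under the alternatives, 71 kept their direction. The exceptions were Mybl1 and Tcfl5 under quantile normalization (-0.11 and -0.0136) and values without a library, which ranged from -0.21 to 0.37 for Mybl1, from -0.12 to 0.18 for Tcfl5 and from -0.21 to 0.0435 for Rfx4. The smallest limma adjusted p of a regulator was 0.657 and the largest change 0.47. Quantile normalization moved the median change of all tested genes from 0.07 to -0.07. Relative to that median, Crem was at -0.35 as reported and at -0.24 under quantile normalization, and Sox30 at 0.20 and 0.19. Over all tested genes, 235 were called higher and 5 lower. A replicate block raised this to 424 higher and 23 lower, and the pairing changed no call of a regulator. Without a filter 1 gene was called lower, as with limma-voom on the recovered reads. Leaving out a library gave 0 to 184 genes called higher and 0 to 1 called lower. Of 142 list medians, 33 moved by more than the SD of the medians in the pairs, which is smaller than the difference between the pairs. Leaving out a library turned the sign of the medians of the MYB list (-0.01 to 0.20), the piRNA list (-0.03 to 0.04), the intraflagellar transport list (-0.07 to 0.10), the meiotic prophase list (-0.24 to 0.12) and of Sox6 (-0.05 to 0.21). The causes of these shifts were not tested. Rfx3, with at most 81 reads in a library, had the lowest read counts of the regulators.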
